A study of Homo sapiens with 12 samples.

Results

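K562 cells, which were established from a patient with chronic myeloid leukaemia in blast crisis, were profiled by RNA sequencing with and without overexpression of EVI1. The comparison held 6 of the 12 samples of the series, 3 labelled K562 EVI1 overexpression and 3 labelled K562 control, and all 58191 gene rows of the deposited expression table were considered. The EVI1 libraries are labelled as overexpressing EVI1 in K562, and the control libraries carry the treatment label wild type. The labels give no drug, dose or time, and they do not say which vector or promoter drove EVI1, which EVI1 isoform was used, whether the controls carried an empty vector, or whether the EVI1 cells were 1 clone or a pool. Nothing in the labels says that the replicates were separate cultures, so the p-values below measure the spread between these libraries, which may be technical. The extraction text of all samples names mouse small intestine cells, although the organism is given as human and the source as the cell line.

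EVI1 is a zinc finger transcription factor made from the MECOM locus, and it normally acts in blood stem cells. It binds GATA-like DNA sequences and recruits corepressors such as the CTBP proteins, histone deacetylases and DNA methyltransferases. High EVI1 marks a poor-risk group of acute myeloid leukaemia. K562 cells carry the BCR-ABL1 fusion, grow as erythroid-megakaryocytic precursors and express embryonic and fetal globins.

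The values were FPKM (fragments scaled by transcript length and by the number mapped in the library), and all fold changes below are differences of log2(FPKM + 1), K562 EVI1 minus K562 control, which understate changes of low genes. A gene was tested when it reached 1 FPKM in at least 3 of the 6 libraries, which left 13800 genes, and it was called when limma's adjusted p was under 0.05. Depth is not given, and the spacing of the lowest values put it at 55800000 to 73900000 fragments for the EVI1 libraries and 35900000 to 64100000 for the control libraries. Pearson's r of log2 values was 0.977 to 0.987 between EVI1 libraries, 0.985 to 0.990 between control libraries and 0.935 to 0.950 across the groups. All 21 K562 marker genes were tested, of which 5 were called higher and 8 lower, with a median log2 fold change of -0.085. Their summed level was 14490.0 to 17830.0 FPKM in K562 EVI1 libraries and 11750.0 to 12360.0 FPKM in K562 control libraries. Globins made up most of these sums, with 12120.0 to 15250.0 FPKM and 9324.0 to 9979.0 FPKM over all globin genes. Of 29 intestinal epithelium genes 7 were tested, of which 4 were called higher and 2 lower. The list summed to 1640.0 to 1766.0 FPKM in EVI1 libraries and 1071.0 to 1241.0 FPKM in control libraries. Among its 22 members that were not tested, CDX1, CDX2, OLFM4, FABP1 and FABP2 were listed at 0 in the 6 libraries. These zeros do not speak for the 7 tested members, and the source of their RNA was not tested. Over all genes tested 28.2% were called higher and 23.7% lower. Some abundant genes were listed at exactly 0 in single libraries beside high replicates, among them EEF1A1, which stood at 0, 7963 and 0 FPKM in the EVI1 libraries, against 6372, 6118 and 6554 FPKM in the control libraries. EEF1A1 was called lower on these zeros alone. Such zeros, which also touched MT-CO1, MT-CO3, MT-ND4, MT-ND4L, MT-ATP6 and MT-ATP8, were not read as levels.

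MECOM, the overexpressed locus, had 25.9, 23.9 and 22.1 FPKM in the EVI1 libraries, against 14.6, 11.2 and 10.9 FPKM in the control libraries. Every EVI1 library lay above every control library, and the rise was below 2-fold (log2 fold change 0.93 ± 0.12 (SE), adjusted p = 3.4e-04). The control libraries were not free of MECOM RNA. Between the groups 7163 of 13800 genes were called, 51.9% of those tested. Of the genes tested, 3898 rose (28.2%) and 3265 fell (23.7%), with a median log2 fold change of 0.005. At 2-fold or more the change leaned upwards, with 995 genes higher (7.21%) and 219 lower (1.59%). At 4-fold or more 196 genes rose and 17 fell. The filter let in 862 genes that averaged below 1 FPKM in the control libraries and 366 that did so in the EVI1 libraries, and the direction of such genes was largely set by passing through the other group. Of the 12594 genes averaging 1 FPKM or more in both groups, 25.1% rose and 24.2% fell, and at 2-fold or more 573 rose and 152 fell. Where 2 or more members of a list drop out in this way, its higher and lower counts are also given over the members measured in both groups, meaning those at 1 FPKM or more on average in each. The 3 EVI1 libraries lay wholly above or wholly below the 3 control libraries for 8363 genes, 60.6% of those tested. In a bulk sample, fewer cells of a type and less RNA per cell cannot be told apart, which holds for every level below.

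**Figure D1:**
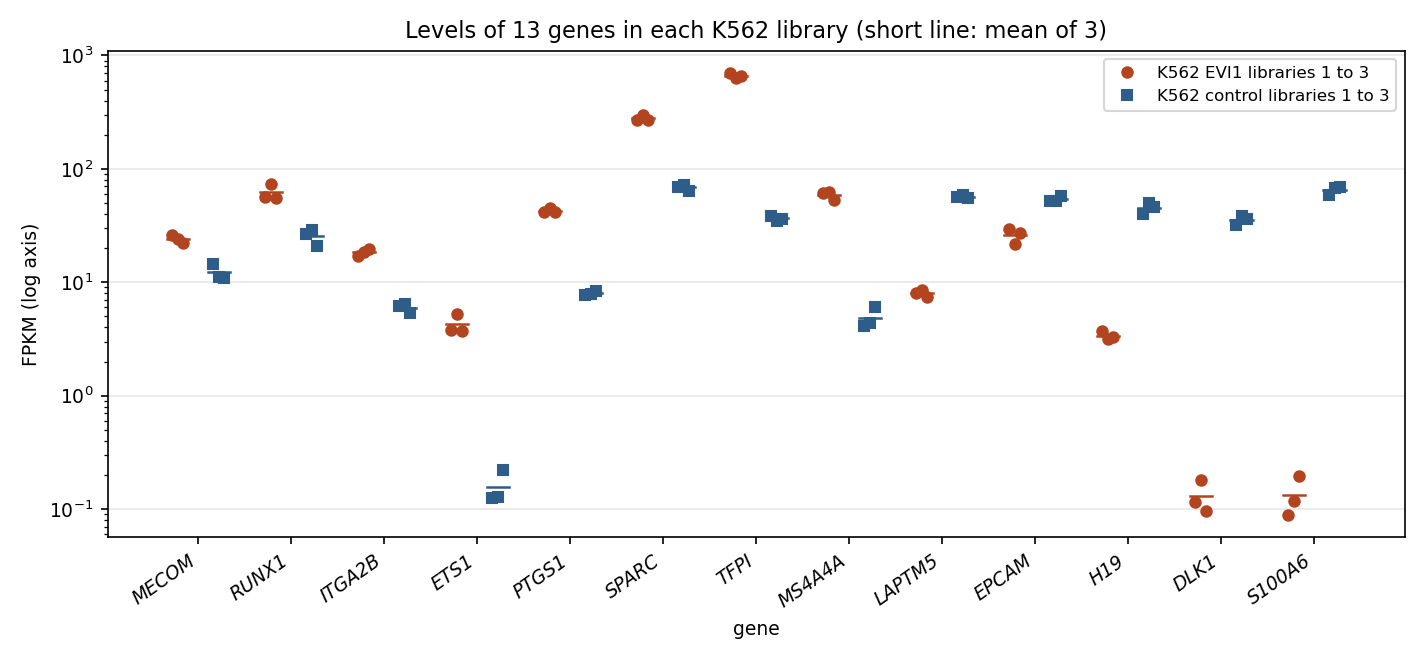
FPKM (log axis) of 13 genes in each of the 3 K562 EVI1 libraries (circles) and the 3 K562 control libraries (squares), with short lines at the mean of 3. MECOM averaged 23.99 FPKM in EVI1 libraries and 12.2 FPKM in control libraries, while S100A6 averaged 0.134 FPKM in EVI1 libraries and 65.7 FPKM in control libraries. The groups do not overlap for any gene shown, which also holds for 60.6% of all genes tested.

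Where genes lie on the chromosomes set apart a part of the changed genes. The tested genes were ordered along GRCh38 and cut into 677 windows of 20 neighbours, and runs of at least 5 windows whose median log2 fold changes were all at or above 0.2, or all at or below -0.2, were collected. This rule was chosen after the window medians were seen. There were 7 such runs on 6 chromosomes. Chromosome 14 was higher along its whole measured length. All 22 windows of chromosome 14 had positive medians, between 0.32 and 0.99, and 68.9% of its 456 tested genes rose while 2.41% fell. Chromosome 18 was higher from chr18:25061926-79679358, where 69.2% of 120 genes rose. The first part of chromosome 11 was higher in a pair of runs, chr11:127204-13463297 with a median of 0.41 and chr11:18394388-47642623 with a median of 0.41, whereas all but 3 of the later windows of that chromosome lay between -0.2 and 0.2.

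The opposite held on 3 chromosomes. On chromosome 7, 32 of 33 windows had negative medians, the lowest at -0.67, and 53.0% of its 668 tested genes fell while 13.3% rose. The strongest stretch was chr7:19018-77798580, where 62.7% of 300 genes fell. On chromosome 20 the change began part of the way along. Over chr20:25248069-62407285 all 10 windows lay between -0.57 and -0.29, and 64.0% of 200 genes fell. The end of chromosome 6, chr6:137823673-170572870, had a median of -0.46, and 64.0% of its 100 genes fell. The single chromosome 7 window with a positive median, 0.63, held the T cell receptor beta genes TRBV20-1, TRBC2 and TRBV30.

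**Figure D2:**
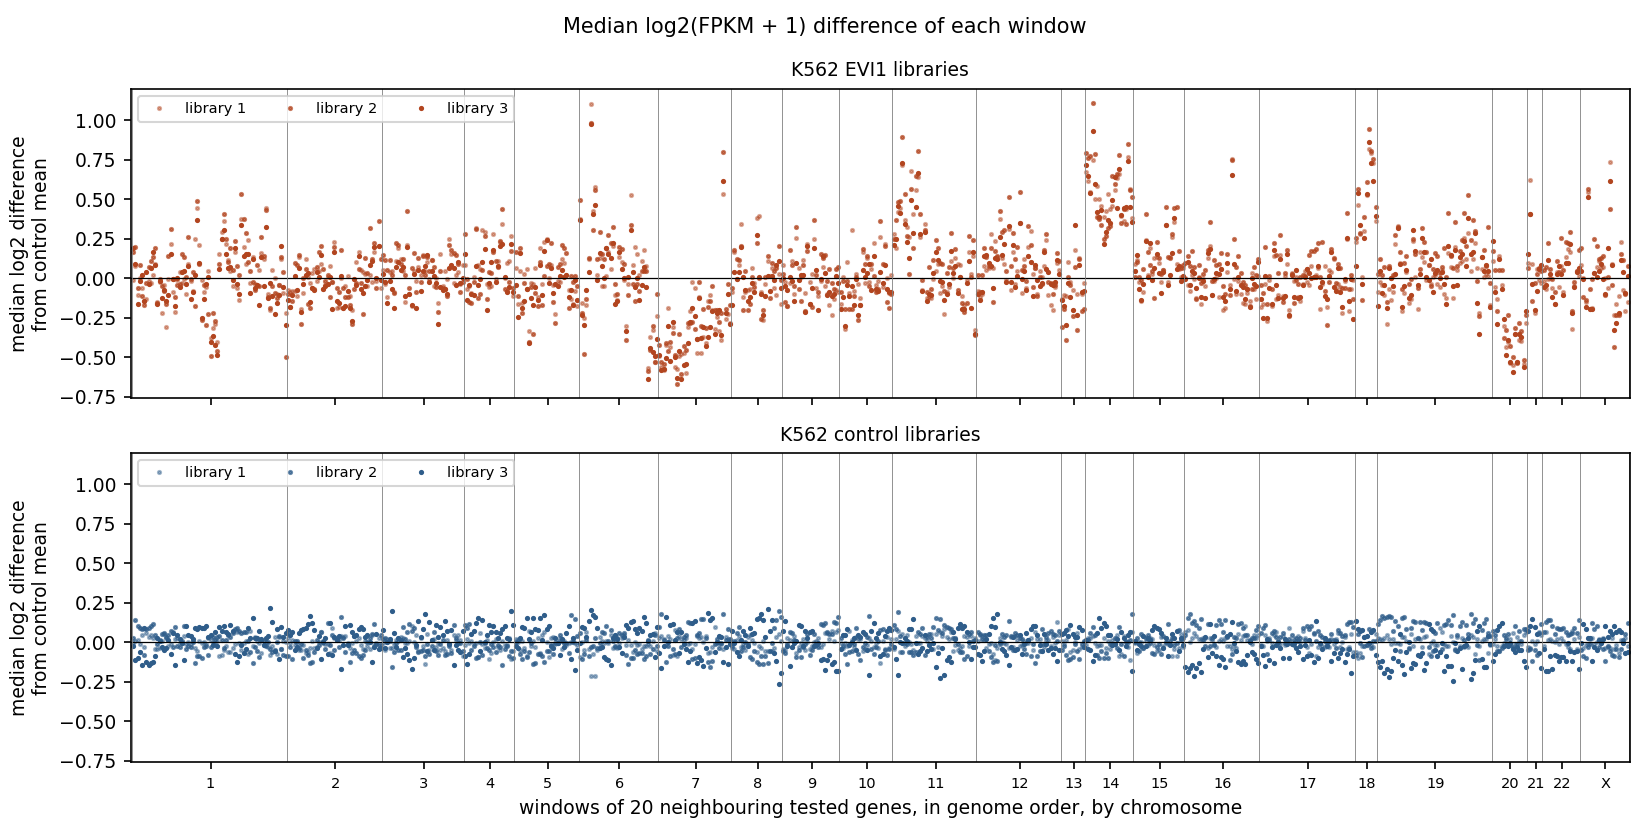
Median log2(FPKM + 1) difference of 677 windows of 20 neighbouring tested genes, in genome order by chromosome, for the 3 K562 EVI1 libraries (upper panel) and the 3 K562 control libraries (lower panel). Each EVI1 library is set against the mean of the 3 controls and each control library against the mean of the other 2. In the upper panel chromosome 14 stands above 0 and chromosome 7 below 0 in all 3 EVI1 libraries, while the lower panel shows no such blocks.

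The runs were picked on the mean difference of these same libraries, so EVI1 medians away from 0 within them follow from that choice. The values below describe only how far the single libraries differed. The 3 EVI1 libraries gave nearly the same size for each run. On chromosome 14 the median difference from the control mean was 0.532, 0.546 and 0.469 in the EVI1 libraries, against -0.002, -0.004 and 0.022 in the control libraries, each of these set against the other 2. In the run on chromosome 18 it was 0.614, 0.679 and 0.609 in the EVI1 libraries, against 0.002, 0.002 and 0.012 in the control libraries. In the run on chromosome 7 it was -0.455, -0.423 and -0.485 in the EVI1 libraries, against 0.006, 0.013 and -0.004 in the control libraries. Over the 7 runs the control libraries ranged from -0.034 to 0.048, and the EVI1 libraries closest to 0 stood at 0.357 in the higher runs and at -0.387 in the lower ones. DNA was not measured, so a change in the number of gene copies and a change in transcription over a whole chromosome arm cannot be told apart here, and EVI1 and any difference in origin between the cell populations are confounded.

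**Figure D3:**
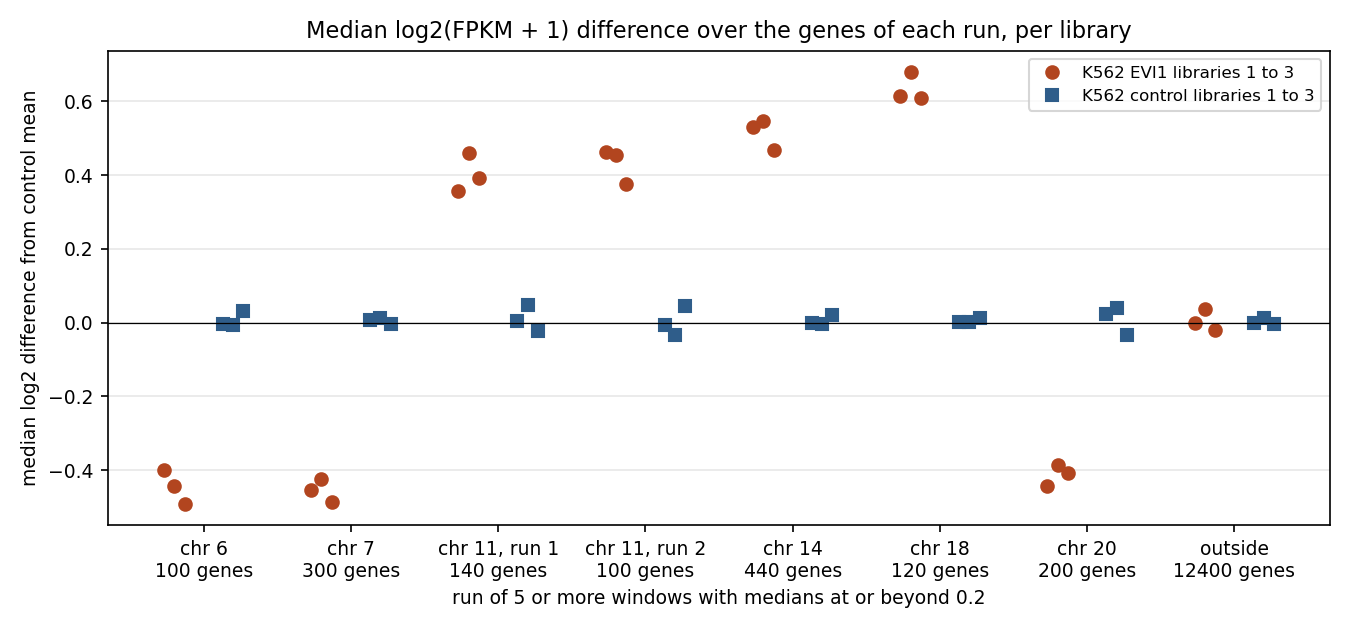
Median log2(FPKM + 1) difference from the control mean over the genes of each run of windows and over the 12400 tested genes outside the runs, for the 3 K562 EVI1 libraries (circles) and the 3 K562 control libraries (squares; each against the other 2). EVI1 libraries lie at 0.357 or above in the runs on chromosomes 11, 14 and 18 and at -0.387 or below in those on chromosomes 6, 7 and 20. The runs were picked on the mean difference of these same libraries, so the distance from 0 follows from that choice.

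The higher runs held 13.6% of all genes called higher, and the lower runs held 11.6% of all genes called lower. Outside them 6160 of 12400 genes were called, 49.7%, with 3310 higher and 2850 lower and a median of -0.002. Genes outside the runs held 86.0% of all calls, but they were also most of the genes tested. Inside the higher runs 70.6% of 800 genes were called, and inside the lower runs 73.0% of 600. The runs were picked on these same values, so higher shares inside them follow in part from that choice. Within the runs some genes went against their neighbours. On chromosome 14 DLK1, an imprinted NOTCH ligand relative, fell with 0.115, 0.181 and 0.0959 FPKM in the EVI1 libraries, against 31.9, 38.3 and 36.2 FPKM in the control libraries (log2 fold change -5.01). Within the chromosome 7 run IL6, the cytokine interleukin-6, rose (1.70). CYB5A on chromosome 18, a cytochrome b5, had 0.579, 0.5599 and 0.415 FPKM in the EVI1 libraries, against 4.11, 3.97 and 3.79 FPKM in the control libraries (log2 fold change -1.71). DLK1 and CYB5A passed the filter through the control libraries alone, which fixed their direction.

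A set of genes was nearly silent in controls and well expressed with EVI1. For 35 genes every control library was below 0.5 FPKM and every EVI1 library above 5 FPKM, while 3 genes showed the reverse, DLK1, S100A6 and the clone-named AC011445.2. DTNA, the dystrophin partner dystrobrevin alpha, had 33.1, 32.9 and 29.6 FPKM in EVI1 libraries, against 0.162, 0.164 and 0.311 FPKM in control libraries. CGA, the common subunit of pituitary glycoprotein hormones, had 14.1, 14.4 and 15.01 FPKM in EVI1 libraries, against 0, 0 and 0.04403 FPKM in control libraries. GCA, the calcium-binding protein grancalcin, had 15.3, 17.8 and 16.1 FPKM in EVI1 libraries, against 0.207, 0.0582 and 0.0925 FPKM in control libraries. The set crossed many tissues. It included the testis gene BRDT, the steroid enzyme CYP11A1, the kidney water channel AQP2, the lymphatic hyaluronan receptor LYVE1 and the tight junction gene CLDN11, which were named after their values were seen. These 5 averaged 5.81 to 6.70 FPKM in EVI1 libraries and at most 0.25 FPKM in control libraries.

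Large rises also reached genes measured above 1 FPKM in the controls. TFPI, the inhibitor of the tissue factor pathway, had 703, 634 and 659.6 FPKM in EVI1 libraries, against 38.6, 34.8 and 36.5 FPKM in control libraries (log2 fold change 4.15 ± 0.07 (SE), adjusted p = 1.2e-08). MME, the surface peptidase CD10, had 31.6, 38.8 and 31.3 FPKM in EVI1 libraries, against 2.11, 1.88 and 2.25 FPKM in control libraries (log2 fold change 3.5 ± 0.11 (SE), adjusted p = 2.2e-07). In both of these genes the EVI1 libraries stood far above the control libraries, and the largest rises were named only where the groups did not overlap. PCDH10, a protocadherin, TC2N, a C2 domain protein, RLN3, a relaxin peptide, and TMEM108, all below 1 FPKM on average in the controls, had log2 fold changes between 3.74 and 4.10.

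Large falls were fewer than large rises. S100A6, a calcium-binding protein, stood at 0.0889, 0.117 and 0.195 FPKM in the EVI1 libraries, against 59.1, 68.4 and 69.5 FPKM in the control libraries (log2 fold change -5.88). S100A6 reached 1 FPKM only in the control libraries, so the filter fixed its direction. SYK, a tyrosine kinase of immune receptors, had 2.38, 2.96 and 2.51 FPKM in EVI1 libraries, against 10.9, 11.5 and 9.65 FPKM in control libraries (log2 fold change -1.69 ± 0.11 (SE), adjusted p = 7.4e-06). WAS, the actin regulator of blood cells, had 1.42, 1.796 and 1.37 FPKM in EVI1 libraries, against 7.71, 7.81 and 8.02 FPKM in control libraries (log2 fold change -1.81 ± 0.10 (SE), adjusted p = 4.1e-06). The groups did not overlap in these genes, but the largest falls were named only where this held, as it did for 60.6% of all genes tested. IL1RAP, a subunit of the interleukin-1 receptor complex found on leukaemic stem cells, had a log2 fold change of -2.09, LITAF, a lysosomal protein, -2.09, HNMT, which breaks down histamine, -2.08, and PLTP, a lipid transfer protein on chromosome 20, -1.81.

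Genes around EVI1 itself changed in both directions, at shares not far from those of all genes. Of 20 tested family and partner genes, 4 rose and 7 fell, with a median of -0.02, beside 28.2% and 23.7% of all genes tested. DNMT3A, a DNA methyltransferase that EVI1 binds, had 10.5, 12.6 and 11.8 FPKM in EVI1 libraries, against 6.101, 7.57 and 5.68 FPKM in control libraries (log2 fold change 0.77 ± 0.12 (SE), adjusted p = 8.8e-04). Its relative DNMT3B, which lies in the lower stretch of chromosome 20, had 26.2, 28.2 and 26.2 FPKM in EVI1 libraries, against 49.95, 53.2 and 50.6 FPKM in control libraries (log2 fold change -0.91 ± 0.07 (SE), adjusted p = 2.1e-05). The deacetylases HDAC1 and HDAC2 fell by 0.56 and 0.39 on the log2 scale. The corepressors CTBP1 and CTBP2 were not called, at 0.12 and 0.02, and the paralogue PRDM16 was not tested.

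Of 18 tested genes known from other studies to respond to EVI1, 10 rose and 2 fell (8 and 2 of the 16 measured in both groups), with a median of 0.37. Over all genes measured in both groups 25.1% rose and 24.2% fell. ESAM, an adhesion molecule of stem cells and endothelium, had 4.73, 5.003 and 4.31 FPKM in EVI1 libraries, against 0.263, 0.364 and 0.419 FPKM in control libraries (log2 fold change 2.07). ESAM passed the filter through the EVI1 libraries alone, which fixed its direction. FOS, on chromosome 14, had a log2 fold change of 1.91, and CDKN1A, the cyclin-dependent kinase inhibitor p21, 1.35. SPI1, the myeloid factor PU.1, fell with 17.02, 21.04 and 17.9 FPKM in EVI1 libraries, against 27.9, 31.8 and 26.8 FPKM in control libraries (log2 fold change -0.60 ± 0.10 (SE), adjusted p = 0.0015), although it lies in the second higher stretch of chromosome 11. GATA2, a direct EVI1 target in mouse stem cells, rose by less, with a log2 fold change of 0.40. The list holds genes reported as raised and as lowered by EVI1, so its median has no set direction.

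Stem cell and lineage transcription factors changed in both directions. Of 24 tested, 10 rose and 8 fell, with a median of 0.15. Of the 21 measured in both groups 7 rose (33.3%) and 8 fell (38.1%), with a median of -0.12. Among all genes so measured 25.1% rose and 24.2% fell. RUNX1, a master factor of blood formation, had 56.7, 73.8 and 55.6 FPKM in EVI1 libraries, against 26.7, 29.2 and 20.8 FPKM in control libraries (log2 fold change 1.25 ± 0.15 (SE), adjusted p = 2.1e-04). ETS1, a lymphoid and megakaryocytic factor, had 3.81, 5.23 and 3.702 FPKM in EVI1 libraries, against 0.124, 0.129 and 0.221 FPKM in control libraries (log2 fold change 2.17). ETS1 reached 1 FPKM only in the EVI1 libraries, so the filter fixed its direction. IKZF1, the lymphoid factor Ikaros on chromosome 7, had 12.8, 12.9 and 12.5 FPKM in EVI1 libraries, against 24.4, 24.2 and 22.2 FPKM in control libraries (log2 fold change -0.84 ± 0.08 (SE), adjusted p = 4.7e-05). SOX6, which silences embryonic globin in definitive erythroid cells, had a log2 fold change of -1.03 although it lies between the higher stretches of chromosome 11. The erythroid factor GATA1 was not called (0.13), while LMO2 (-0.58) and KLF1 (-0.40) fell and GFI1B rose (0.48).

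The globins changed in both directions. The fetal globin HBG2 was the most abundant in the controls and HBE1, the embryonic beta-like globin, in the EVI1 libraries. HBE1 had 6449, 7502 and 6210.3 FPKM in EVI1 libraries, against 3267, 3227 and 3528 FPKM in control libraries (log2 fold change 1.00 ± 0.11 (SE), adjusted p = 1.2e-04). HBG1, the other fetal globin, rose (0.43), whereas HBG2 was not called (0.11), and reads of this near-identical pair may be split between them. HBB, the main adult beta globin, rose at a low level, with 1.86, 1.33 and 1.56 FPKM in EVI1 libraries, against 0.0966, 0.255 and 0.3403 FPKM in control libraries (log2 fold change 1.07). HBB passed the filter through the EVI1 libraries alone, which fixed its direction. HBD, the minor adult globin, fell with 17.01, 18.4 and 16.8 FPKM in EVI1 libraries, against 31.4, 31.1 and 30.01 FPKM in control libraries (log2 fold change -0.79 ± 0.07 (SE), adjusted p = 5.5e-05). On chromosome 16 HBZ, the embryonic alpha-like globin, fell (-0.46), HBA1 fell (-0.55), its near-identical copy HBA2 was not called (0.05) and HBQ1, theta globin, rose (0.66). The summed level of all globins was 12120.0 to 15250.0 FPKM in K562 EVI1 libraries and 9324 to 9979 FPKM in K562 control libraries. The 5 beta-like globins lie in the higher stretch of chromosome 11, so HBD fell against its neighbours.

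Red cell genes changed in both directions, with list shares not far from the 28.2% higher and 23.7% lower of all genes tested. In haem synthesis 6 of 23 genes rose and 3 fell, or 5 without EVI1 library 2 and 6 after median of ratios scaling. FECH, which inserts iron into haem and lies in the higher stretch of chromosome 18, had 142, 154 and 139 FPKM in EVI1 libraries, against 65.96, 71.2 and 63.3 FPKM in control libraries (log2 fold change 1.10 ± 0.07 (SE), adjusted p = 1.1e-05), and ALAD rose (0.84), while the erythroid first enzyme ALAS2 fell (-0.34). In iron handling 4 of 19 rose and 6 fell (3 without EVI1 library 3 or control library 1), among the falls the transferrin receptor TFRC (-0.42), TFR2 (-0.60) and the iron exporter SLC40A1 (-0.75). ERFE, the erythroid hormone that lowers hepcidin, rose (1.33). CA2 and CA1, erythroid carbonic anhydrases, rose with log2 fold changes of 4.23 and 1.80, and 5 of 6 tested family members rose and none fell. Of 29 membrane and blood group genes 10 rose and 6 fell, with 3 lower without control library 1 and 11 lower after median of ratios scaling. CD44, the hyaluronan receptor that carries the Indian blood group, had 24.8, 27.7 and 24.04 FPKM in EVI1 libraries, against 3.89, 6.81 and 4.85 FPKM in control libraries (log2 fold change 2.13 ± 0.16 (SE), adjusted p = 1.9e-05). The blood group proteins KEL (-0.77) and RHD (-0.62) fell.

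Megakaryocyte and platelet genes were more often higher, with 14 of 27 tested higher and 4 lower (10 and 3 of the 21 measured in both groups). Of these 21, 47.6% rose and 14.3% fell, beside 25.1% and 24.2% of all genes measured in both groups. The median was 0.34, or 0.32 over those measured in both groups. PTGS1, the cyclooxygenase that platelets use to make thromboxane, had 41.6, 44.9 and 41.5 FPKM in EVI1 libraries, against 7.74, 7.87 and 8.38 FPKM in control libraries (log2 fold change 2.28 ± 0.08 (SE), adjusted p = 3.3e-07). SPARC, a matrix protein stored in platelets, had 270.4, 298 and 268 FPKM in EVI1 libraries, against 69.6, 71.8 and 64.4 FPKM in control libraries (log2 fold change 2.01 ± 0.08 (SE), adjusted p = 5.3e-07). ITGA2B, the platelet integrin subunit CD41, had 17.1, 18.4 and 19.6 FPKM in EVI1 libraries, against 6.13, 6.39 and 5.33 FPKM in control libraries (log2 fold change 1.48 ± 0.10 (SE), adjusted p = 8.8e-06). All 3 genes rose without overlap of the groups. RAB27B, needed for platelet granules, rose by 3.33 and lies in the chromosome 18 stretch. STXBP5 (-1.19) in the lower stretch of chromosome 6 and the thrombospondin receptor CD36 (-1.18) fell. The late markers PF4, PPBP and GP9 did not reach 1 FPKM in 3 libraries and were not tested.

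Most listed genes of other blood cells did not reach the filter. Over all genes measured in both groups 25.1% rose and 24.2% fell, the background for the counts here. Of 42 monocyte, granule and phagocyte genes 15 were tested, and 6 of these rose and 5 fell (3 and 4 of the 10 measured in both groups), with a summed level of 498 to 552 FPKM in K562 EVI1 libraries and 524 to 574 FPKM in K562 control libraries. LAPTM5, a lysosomal protein of blood cells, had 8.06, 8.55 and 7.48 FPKM in EVI1 libraries, against 56.3, 58.2 and 54.8 FPKM in control libraries (log2 fold change -2.67 ± 0.08 (SE), adjusted p = 1.5e-07). CTSS, a protease of antigen-presenting cells, fell (-1.62) and VCAN, a proteoglycan of monocytes, rose (2.03). Among the 27 members not tested, CTSG, FCN1, CD86 and CD300E were listed at 0 in all 6 libraries, which does not speak for the 15 tested. Of 39 T, B and NK cell genes 9 were tested, 7 rose and none fell (4 and none of the 6 measured in both groups), and their summed level was 151 to 154 FPKM in K562 EVI1 libraries and 65.5 to 73.1 FPKM in K562 control libraries. TRAC, the T cell receptor alpha constant region on chromosome 14, had 7.55, 8.72 and 9.703 FPKM in EVI1 libraries, against 0.586, 0.885 and 0.2905 FPKM in control libraries (log2 fold change 2.62). TRAC reached 1 FPKM only in the EVI1 libraries, so the filter fixed its direction. TRBC2 had 31.9, 34.5 and 33.7 FPKM in EVI1 libraries, against 5.92, 6.31 and 5.22 FPKM in control libraries (log2 fold change 2.34 ± 0.09 (SE), adjusted p = 5.4e-07). Among the 30 not tested, CD8A and GZMA were listed at 0 in all 6 libraries. LCK averaged 0.381 FPKM in EVI1 libraries and 0.0531 FPKM in control libraries. Of 20 genes expected in MOLM14, the other line of the study, 6 were tested, of which 3 rose and 2 fell. Among the 14 not tested, HOXA9, HOXA10 and FLT3 were listed at 0 in all 6 libraries. CD33, a myeloid surface marker, rose (1.08), as did the 4 of 15 MS4A family members that passed the filter, of which 2 averaged below 1 FPKM in the control libraries. MS4A4A had 61.6, 62 and 52.7 FPKM in EVI1 libraries, against 4.11, 4.39 and 6.002 FPKM in control libraries (log2 fold change 3.37 ± 0.13 (SE), adjusted p = 6.0e-07).

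Genes that cells switch on when amino acids run short or unfolded protein accumulates rose far more often than they fell. In these conditions kinases phosphorylate the initiation factor eIF2, the transcription factor ATF4 is made, and with C/EBP partners it binds a composite DNA site at genes of amino acid supply. Of 41 tested genes of this integrated stress response 28 rose and 3 fell (26 and 3 of the 39 measured in both groups), with a median of 0.61, beside 0.005 over all genes tested. Of these 39, 66.7% rose and 7.69% fell, beside 25.1% and 24.2% of all genes measured in both groups. The promoters printed here are those of the glutathione-degrading enzyme CHAC1, of asparagine synthetase (ASNS) and of the tRNA synthetases for cysteine (CARS), alanine (AARS) and methionine (MARS), because all 5 genes rose and their promoters hold the composite motif. Each runs 5′ to 3′ on the gene's strand from 250 bases before to 50 after the RefSeq start (GRCh38.p14), and capitals mark the motif TGATGNAA or its reverse complement.
CHAC1, chr15:40953221-40953520, plus strand: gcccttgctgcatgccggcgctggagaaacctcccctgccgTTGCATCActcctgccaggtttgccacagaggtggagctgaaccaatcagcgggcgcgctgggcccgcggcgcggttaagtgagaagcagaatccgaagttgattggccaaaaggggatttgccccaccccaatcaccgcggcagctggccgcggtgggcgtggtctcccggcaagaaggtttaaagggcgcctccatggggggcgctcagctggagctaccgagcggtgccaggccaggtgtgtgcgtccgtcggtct
ASNS, chr7:97872359-97872658, minus strand: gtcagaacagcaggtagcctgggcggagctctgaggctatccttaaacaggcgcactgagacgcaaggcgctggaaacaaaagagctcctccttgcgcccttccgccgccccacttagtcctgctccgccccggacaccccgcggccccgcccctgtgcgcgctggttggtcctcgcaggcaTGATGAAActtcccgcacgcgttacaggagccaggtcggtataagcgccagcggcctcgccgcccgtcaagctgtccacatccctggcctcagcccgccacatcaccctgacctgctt
CARS, chr11:3057374-3057673, minus strand: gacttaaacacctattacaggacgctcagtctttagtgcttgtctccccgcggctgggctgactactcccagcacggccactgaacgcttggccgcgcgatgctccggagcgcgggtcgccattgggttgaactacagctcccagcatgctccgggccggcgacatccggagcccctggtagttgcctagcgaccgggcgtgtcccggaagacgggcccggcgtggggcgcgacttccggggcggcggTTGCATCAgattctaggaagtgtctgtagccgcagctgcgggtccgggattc
AARS, chr16:70289457-70289756, minus strand: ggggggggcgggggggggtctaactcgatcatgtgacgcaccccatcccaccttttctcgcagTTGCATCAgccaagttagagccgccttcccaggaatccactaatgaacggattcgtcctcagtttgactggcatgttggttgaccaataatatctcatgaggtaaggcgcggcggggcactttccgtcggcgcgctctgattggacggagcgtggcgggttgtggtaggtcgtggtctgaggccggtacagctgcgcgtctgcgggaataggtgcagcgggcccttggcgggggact
MARS, chr12:57487818-57488117, plus strand: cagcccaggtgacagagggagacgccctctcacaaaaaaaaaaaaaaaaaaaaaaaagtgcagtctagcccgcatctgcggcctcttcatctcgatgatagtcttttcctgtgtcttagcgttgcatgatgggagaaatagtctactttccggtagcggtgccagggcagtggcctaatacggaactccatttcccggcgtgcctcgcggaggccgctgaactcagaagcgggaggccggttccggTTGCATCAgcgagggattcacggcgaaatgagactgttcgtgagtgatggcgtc

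The letters TTGCATCA stood in 4 of the 5 promoters, and ASNS held TGATGAAA, 68 bases before its start. On either strand TGATGNAA was found in 2.85% of 19018 promoters in the RefSeq set and in 1.64% of the 9784 promoters of tested genes. Among the genes that rose it was in 3 of the 23 promoters matched for the stress response list, in 3 of 11 for amino acid transporters and in 4 of 8 for cytosolic tRNA synthetases, the fourth being that of NARS. Of 640 matched genes that rose 2-fold or more 2.81% held it, and of the 116 that rose 4-fold or more 7.76%. The motif may overlap others, and a match here is a string of letters, not a bound site. Other motifs, searched on both strands, also differed in share. The GATA motif AGATAA was in 8.45% of all promoters in the set, 5.02% of tested promoters and 6.0% of the 150 that fell 2-fold or more. It was in 8.59% of those that rose 2-fold or more, 11.2% of those that rose 4-fold or more and none of the 23 of the stress response list. The AP-1 motif TGANTCA was in 6.72% of all promoters, 4.36% of tested promoters and 6.67% of those that fell. These 2 groups of rises held it in 8.28% and 6.03%. The STAT motif TTCNNNGAA was in 7.34% of all promoters, 6.18% of tested ones, 4.67% of falls and 7.66% and 11.2% of the rises. For the E-box CACGTG these shares were 8.36%, 10.3%, 12.7%, 5.78% and 7.76%. For TGATGNAA and the GATA, AP-1 and STAT motifs the share among 2-fold rises was thus closer to that of all promoters than to that of tested ones. The EVI1 motif GACAAGATA was found in 0.0684% of all promoters and in 1 of the 640 that rose 2-fold or more. Genes whose regulation lies outside these windows were not examined.

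CHAC1 had 56.05, 102 and 51.5 FPKM in EVI1 libraries, against 1.62, 1.602 and 2.35 FPKM in control libraries (log2 fold change 4.57 ± 0.24 (SE), adjusted p = 2.8e-06). DDIT4, an inhibitor of mTOR complex 1, had 861, 1297 and 826 FPKM in EVI1 libraries, against 46.3, 57.6 and 76.2 FPKM in control libraries (log2 fold change 4.03 ± 0.21 (SE), adjusted p = 2.9e-06). ASNS had 219.6, 309.98 and 179.6 FPKM in EVI1 libraries, against 49.5, 53.4 and 69.3 FPKM in control libraries (log2 fold change 2.00 ± 0.20 (SE), adjusted p = 7.8e-05). All 3 were highest in EVI1 library 2, and the groups did not overlap. EVI1 library 2 was the highest EVI1 library for 24 of the 28 stress response genes that rose and for all 9 tRNA synthetases and all 9 asparagine, cysteine, proline and glutamine genes that rose. Over all 3898 genes that rose, it was the highest for 65.1%. Without EVI1 library 2, CHAC1, DDIT4 and ASNS remained called.

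**Figure D4:**
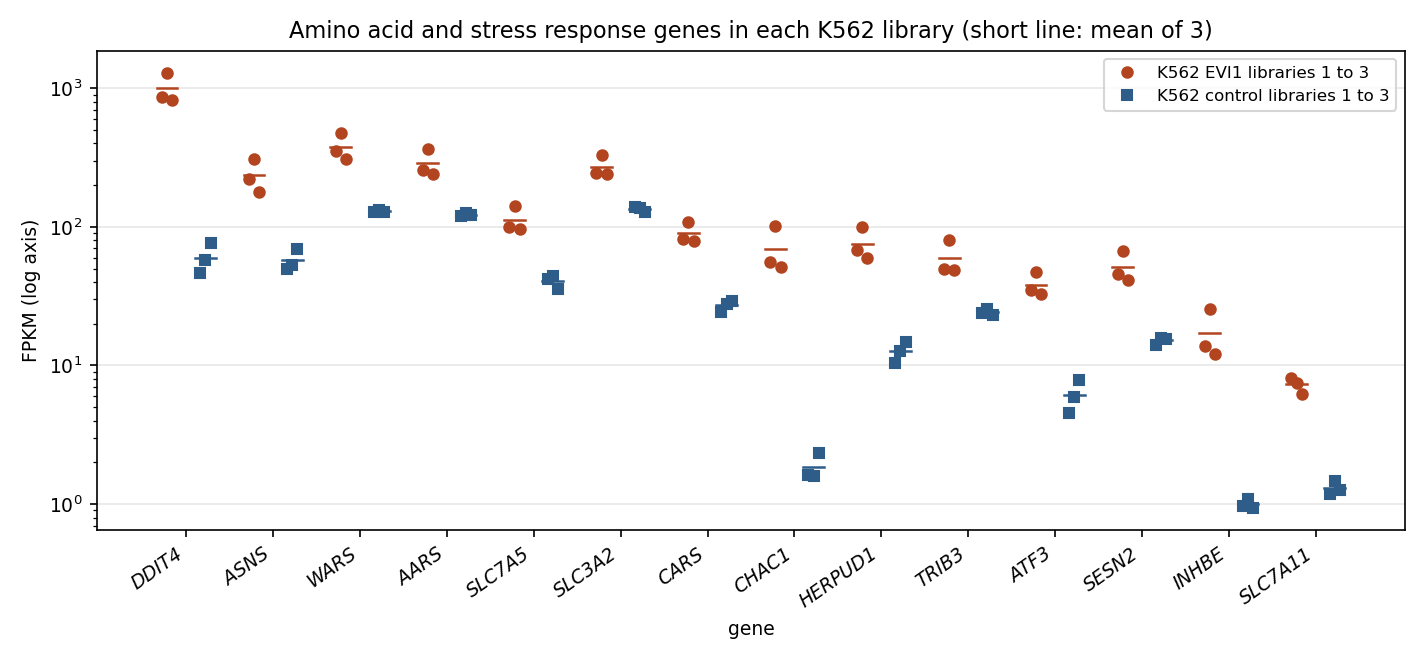
FPKM (log axis) of 14 amino acid and stress response genes in the 3 K562 EVI1 libraries (circles) and the 3 K562 control libraries (squares), with short lines at the mean of 3. DDIT4 averaged 995 FPKM in EVI1 libraries and 60.02 FPKM in control libraries. The groups do not overlap for any gene shown, which also holds for 60.6% of all genes tested. The middle circle, EVI1 library 2, is the highest for most.

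Genes on the supply side of protein synthesis changed in both directions. Of 24 cytosolic tRNA synthetases and cofactors 9 rose (37.5%) and 3 fell (12.5%), with a median of 0.13. Over all genes tested 28.2% rose and 23.7% fell. The largest rises of the list were CARS at 1.68, WARS at 1.52 and AARS at 1.2. Of 17 mitochondrial ones 3 rose and 2 fell. KARS, the lysine enzyme, fell (-0.61). CARS and WARS lie in the higher stretches of chromosomes 11 and 14. Of 26 amino acid transporters 13 rose and 5 fell, including SLC7A11, the cystine importer (1.85) and SLC7A5, which exchanges large neutral amino acids (1.44). In serine and folate metabolism 8 of 26 rose (30.8%) and 9 fell (34.6%), not far from the shares of all genes. PHGDH, the first enzyme of serine synthesis, had 14.2, 33.6 and 14.1 FPKM in EVI1 libraries, against 8.45, 10.3 and 10.3 FPKM in control libraries (log2 fold change 0.90 ± 0.29 (SE), adjusted p = 0.0291). Its call was lost without control library 1 (adjusted p = 0.0826) or control library 3 (adjusted p = 0.0559). Of 36 unfolded protein response genes 14 rose and 3 fell (5 lower without control library 3 and 8 after median of ratios scaling), led by HERPUD1 (2.47), which helps remove misfolded protein, and the chaperone HSPA5 (1.05).

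Genes for building ribosomes were mostly lower. Of 61 nucleolar factors none rose and 44 fell (72.1%), with a median of -0.47. Over all genes tested 28.2% rose and 23.7% fell, the background for the lists here. Of 15 RNA polymerase I genes none rose and 8 fell, and of 13 pseudouridine synthases 1 rose and 7 fell. Without EVI1 library 2 or 3 only 5 of the RNA polymerase I genes fell, and without control library 1 only 4. LTV1, needed to assemble the small subunit and located in the lower stretch of chromosome 6, had 23.4, 19.9 and 23.1 FPKM in EVI1 libraries, against 62.9, 55.9 and 59.7 FPKM in control libraries (log2 fold change -1.39 ± 0.09 (SE), adjusted p = 7.2e-06). UTP20, a small subunit processome factor, had 3.32, 2.45 and 3.198 FPKM in EVI1 libraries, against 9.46, 7.81 and 7.86 FPKM in control libraries (log2 fold change -1.24 ± 0.12 (SE), adjusted p = 8.5e-05). The RNA polymerase I subunit CD3EAP changed by -1.28 on the log2 scale and PUS7, a pseudouridine synthase encoded on chromosome 7, by -1.29. Most of these genes lay outside the runs of windows, where 42 of 58 nucleolar factors fell and none rose. Under the other scalings 40 to 47 nucleolar factors fell and at most 1 rose.

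The ribosomal proteins themselves changed little, with 4 of 78 higher and 18 lower and a median of -0.10, and after quantile normalization this split turned to 12 higher and 7 lower. Only 2 were higher without EVI1 library 3, control library 1 or control library 2. Of 22 snoRNA host genes 2 rose (9.09%) and 9 fell (40.9%), beside 28.2% and 23.7% of all genes tested. MYC, a transcription factor that drives ribosome production, went the other way from the nucleolar genes. It had 284, 352 and 331 FPKM in EVI1 libraries, against 162, 189.7 and 168 FPKM in control libraries (log2 fold change 0.89 ± 0.10 (SE), adjusted p = 1.6e-04). Of 47 heat shock proteins and cofactors 4 rose (1 without EVI1 library 3 or control library 2) and 23 fell, among them the mitochondrial cochaperonin HSPE1 (-0.97), the small heat shock protein HSPB1 (-0.80) on chromosome 7 and CCT6A, a chaperonin subunit on the same chromosome (-0.85).

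Genes of DNA replication fell more often than they rose, while most histone genes rose. Of 66 replication and nucleotide genes 4 rose and 33 fell, with a median of -0.21. Without control library 1, 19 were lower, and without control library 3, 7 were higher. RRM2, a subunit of ribonucleotide reductase, had 107, 118 and 116 FPKM in EVI1 libraries, against 201, 195 and 200.03 FPKM in control libraries (log2 fold change -0.80 ± 0.07 (SE), adjusted p = 3.2e-05). ORC5 (-0.94) and DBF4 (-0.86), which start replication, lie on chromosome 7. Of 34 cyclins, kinases and inhibitors 8 rose (23.5%) and 11 fell (32.4%), not far from the 28.2% and 23.7% of all genes tested. CCNE2, a G1/S cyclin, fell (-1.05), while CCND1 rose (0.97) and CDKN1A had 18.02, 22.04 and 19.5 FPKM in EVI1 libraries, against 5.82, 8.64 and 7.28 FPKM in control libraries (log2 fold change 1.35 ± 0.14 (SE), adjusted p = 9.1e-05).

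Of 46 clustered histone genes 38 rose, 27 of them 2-fold or more, and 1 fell (36 and 1 of the 43 measured in both groups), with a median of 1.16. Of these 43, 83.7% rose and 2.33% fell, beside 25.1% and 24.2% of all genes measured in both groups. The window chr6:26160765-26432383 in the main histone cluster had the highest median of the 677, 1.14. HIST1H3B had 46.7, 63.2 and 47.6 FPKM in EVI1 libraries, against 6.504, 11.9 and 17.9 FPKM in control libraries (log2 fold change 2.11 ± 0.29 (SE), adjusted p = 4.9e-04). HIST1H3F had 9.81, 11.7 and 9.38 FPKM in EVI1 libraries, against 1.33, 1.14 and 2.34 FPKM in control libraries (log2 fold change 2.14 ± 0.17 (SE), adjusted p = 2.6e-05). The exception was HIST1H2BK, the most abundant member, with 676, 711 and 774 FPKM in EVI1 libraries, against 844, 864 and 834 FPKM in control libraries (log2 fold change -0.24 ± 0.08 (SE), adjusted p = 0.032). That fall lost its call under 2 of the 3 other scalings and without EVI1 library 1 or 2 or control library 1 or 2 (adjusted p = 0.0549 to 0.113 without these libraries). Most clustered histone mRNAs end in a stem loop without a poly(A) tail, and the labels do not say whether poly(A) RNA was selected. The share of such RNA that each library captured was not tested, and reads of near-identical copies may be split between them.

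**Figure D5:**
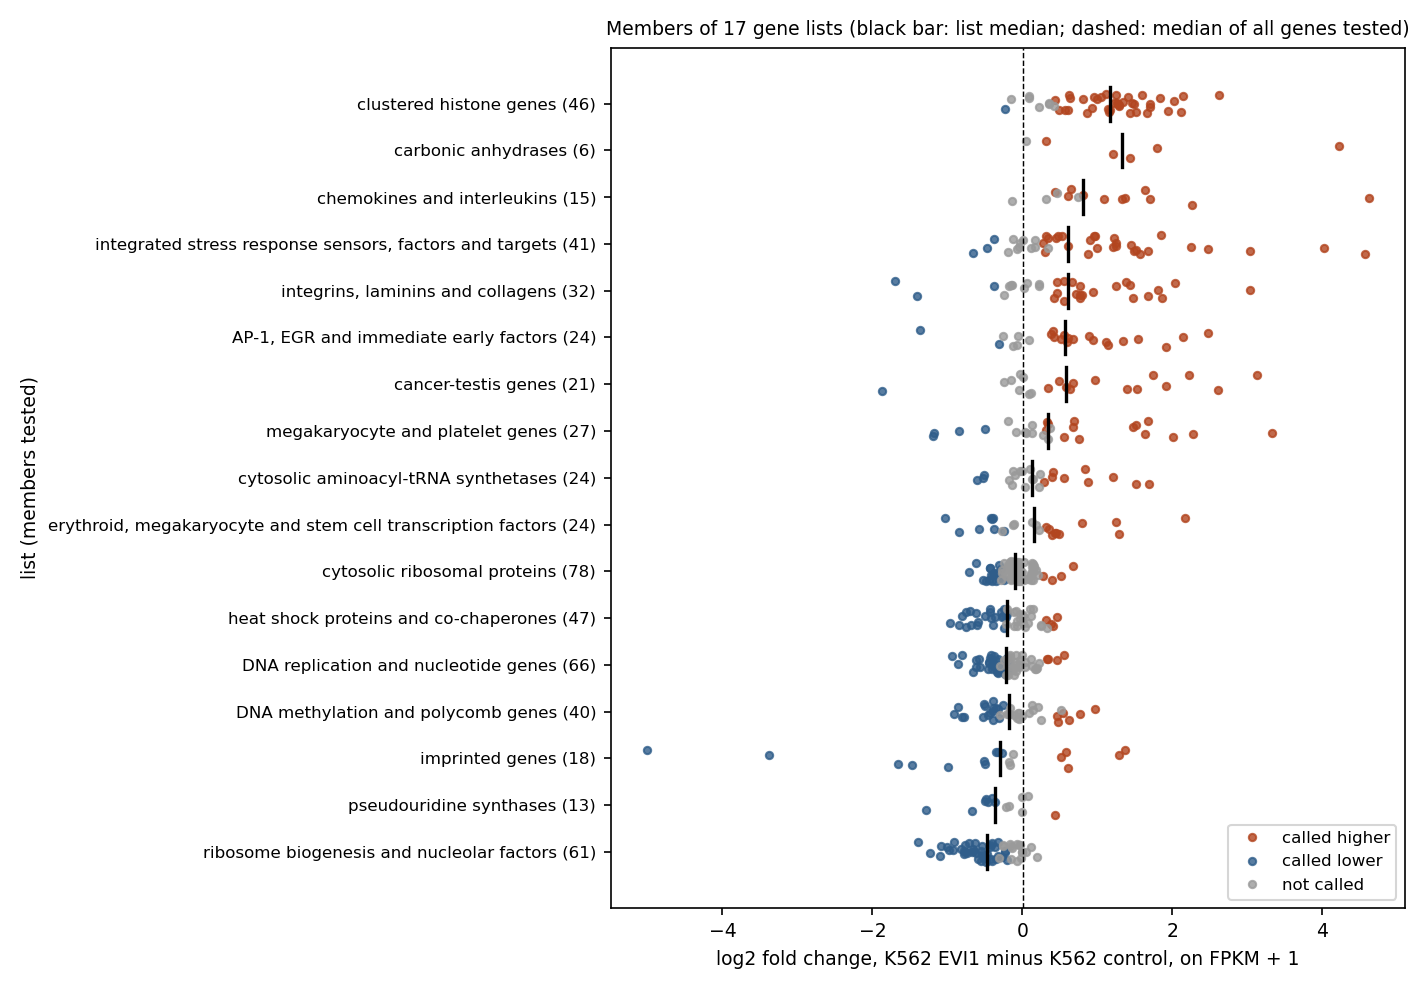
log2 fold change (K562 EVI1 minus K562 control, on FPKM + 1) of the tested members of 17 gene lists (those low in 1 group included), one dot per gene and coloured by call, with list medians as black bars and the median of all genes tested, 0.005, as a dashed line. Histone genes centre at 1.16 and nucleolar factors at -0.47.

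Chromatin regulators and genes under epigenetic control changed in both directions. Of 40 DNA methylation and polycomb genes 6 rose and 17 fell. UHRF1, which guides maintenance methylation, fell (-0.85), as did the polycomb genes BMI1 (-0.78) and PCGF6 (-0.80), while PHC1 rose (0.97). Of 18 imprinted genes 5 rose and 10 fell (3 and 9 of the 15 measured in both groups), and 12 of the 18 lie in the runs of windows. H19, a maternally expressed RNA in the higher stretch of chromosome 11, fell with 3.71, 3.18 and 3.29 FPKM in EVI1 libraries, against 39.8, 49.6 and 45.7 FPKM in control libraries (log2 fold change -3.39 ± 0.10 (SE), adjusted p = 1.9e-07). PLAGL1, in the lower stretch of chromosome 6, had 8.48, 8.82 and 9.35 FPKM in EVI1 libraries, against 29.7, 31.96 and 28.8 FPKM in control libraries (log2 fold change -1.66 ± 0.08 (SE), adjusted p = 1.9e-06). PEG10 on chromosome 7 rose (1.28). Of 21 cancer-testis genes, which are normally expressed in the testis and some of which have near-identical copies that may share reads, 13 rose and 1 fell (11 and 1 of the 19 measured in both groups). PAGE4 had 25.1, 22.8 and 21.5 FPKM in EVI1 libraries, against 1.33, 2.04 and 1.95 FPKM in control libraries (log2 fold change 3.13 ± 0.12 (SE), adjusted p = 6.3e-07), whereas CTAG2 fell (-1.87).

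Adhesion and matrix genes were more often higher. Of 32 integrins, laminins and collagens 21 rose and 3 fell (5 without control library 3). Of the 22 measured in both groups 13 rose (59.1%) and 2 fell (9.09%), with a median of 0.51. Among all genes so measured 25.1% rose and 24.2% fell, the background for the lists here. Of 9 adhesion receptors of the G protein-coupled class 6 rose and 1 fell (3 and 1 of the 6 measured in both groups). COL1A1, a chain of type I collagen, had 21.8, 23.4 and 17.5 FPKM in EVI1 libraries, against 0.864, 2.39 and 1.95 FPKM in control libraries (log2 fold change 3.03 ± 0.21 (SE), adjusted p = 1.3e-05). ITGA7, a laminin receptor subunit, rose (2.04), and the basement membrane genes LAMB1 (-1.40) and COL4A2 (-1.70) fell. Of 20 fibroblast and endothelial marker genes 5 were tested, of which 3 rose and 1 fell, and their summed level was 39.9 to 46.1 FPKM in K562 EVI1 libraries and 13.7 to 18.02 FPKM in K562 control libraries. Among the 15 not tested, FAP and PDGFRA were listed at 0 in all 6 libraries, which does not speak for the tested members. The part of such cells in the matrix genes was not tested. Of 19 mesenchymal and epithelial genes 11 rose and 1 fell. FN1, fibronectin, had 72.3, 93.4 and 63.4 FPKM in EVI1 libraries, against 13.4, 15.7 and 16.5 FPKM in control libraries (log2 fold change 2.24 ± 0.14 (SE), adjusted p = 7.7e-06). EPCAM, an epithelial adhesion molecule also found on K562, had 29.5, 21.9 and 27.3 FPKM in EVI1 libraries, against 52.1, 51.9 and 57.4 FPKM in control libraries (log2 fold change -1.02 ± 0.11 (SE), adjusted p = 1.4e-04), while the keratins KRT8 (0.72) and KRT18 (0.67) rose. Of 19 coagulation and serpin genes 12 rose and 2 fell (9 and 2 of the 16 measured in both groups), with PLAT, the tissue plasminogen activator, at 2.18.

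Of 15 chemokines and interleukins 11 rose and none fell. Of the 11 measured in both groups 8 rose and none fell, with a median of 0.74. IL15, which sustains NK cells, had 34.7, 27.7 and 30.6 FPKM in EVI1 libraries, against 0.228, 0.342 and 0.3299 FPKM in control libraries (log2 fold change 4.62). IL15 reached 1 FPKM only in the EVI1 libraries, so the filter fixed its direction. IL18 had 27.1, 20.8 and 23.9 FPKM in EVI1 libraries, against 4.79, 3.99 and 3.77 FPKM in control libraries (log2 fold change 2.26 ± 0.12 (SE), adjusted p = 3.0e-06). Over all genes measured in both groups 25.1% rose and 24.2% fell, the background for the lists of this paragraph. Among 15 ligands that NK cells read, 6 rose and 2 fell (3 and 2 of the 12 measured in both groups). The share of these 12 that rose was near that of all genes so measured. The stress ligands ULBP2 and ULBP1, both in the lower stretch of chromosome 6, rose by 4.33 and 2.76, and HLA-E, which restrains NK cells, had 58.5, 65.1 and 61 FPKM in EVI1 libraries, against 26.8, 31.3 and 28.3 FPKM in control libraries (log2 fold change 1.07 ± 0.08 (SE), adjusted p = 2.1e-05). CD58, an adhesion ligand, fell (-0.91). In the antigen presentation path of HLA class I 9 of 15 rose and none fell (6 and none of the 12 measured in both groups). Of 24 interferon-stimulated genes and regulators 14 rose and 4 fell (2 without EVI1 library 3, control library 1 or control library 2; 12 and 4 of the 22 measured in both groups), and 6 of them lie in the higher stretches of chromosomes 11 and 14. IFI27 on chromosome 14 rose (2.45), while IFITM2 on chromosome 11 fell (-1.47).

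Early response genes were mostly higher. Of 24 AP-1, EGR and immediate early factors 17 rose (70.8%) and 2 fell (8.33%), with a median of 0.57. The background for each list of this paragraph is 28.2% higher and 23.7% lower over all genes tested. EGR1, a serum response factor target, had 189, 165 and 173 FPKM in EVI1 libraries, against 34.6, 43.8 and 39.3 FPKM in control libraries (log2 fold change 2.14 ± 0.10 (SE), adjusted p = 1.4e-06). JUN had 56.1, 61.9 and 57.9 FPKM in EVI1 libraries, against 18.9, 19.5 and 20.3 FPKM in control libraries (log2 fold change 1.54 ± 0.07 (SE), adjusted p = 1.7e-06). FOSL1, another AP-1 subunit, went the other way (-1.37). Of 19 feedback genes of the ERK pathway 11 rose and 1 fell (9 and 1 of the 17 measured in both groups). Of 33 TGF-beta pathway genes 16 rose and 7 fell (13 and 7 of the 30 measured in both groups), with the inhibitory SMAD7 on chromosome 18 at 2.23 and the receptor TGFBR2 at 1.54. Of 32 STAT5 pathway genes 12 rose and 4 fell (2 without EVI1 library 3, control library 1 or control library 2), with the feedback inhibitors SOCS3 (1.08) and CISH (0.84) among the rises.

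The study asks about the AKT inhibitor capivasertib and the BCL2 inhibitor venetoclax, as its title says, though no drug is labelled on these libraries. Of 54 PI3K, AKT and mTOR genes 24 rose and 11 fell (22 and 10 of the 51 measured in both groups), with a median of 0.09, and after quantile normalization 19 rose and 18 fell. Without control library 1, 7 fell. AKT1, on chromosome 14, had 99.9, 134 and 106 FPKM in EVI1 libraries, against 80.04, 88.8 and 73.02 FPKM in control libraries (log2 fold change 0.48 ± 0.12 (SE), adjusted p = 0.0101). PIK3C2B, a class II kinase of the family, had 5.83, 7.47 and 4.89 FPKM in EVI1 libraries, against 0.894, 0.866 and 0.679 FPKM in control libraries (log2 fold change 1.95). PIK3C2B passed the filter through the EVI1 libraries alone, which fixed its direction. PIK3CA (0.02) and MTOR (0.001) were not called. INPP5D, the lipid phosphatase SHIP1, fell (-1.03). Of 16 tested members of the BCL2 family 5 rose and 2 fell (5 without control library 3). The rises included the death-promoting PMAIP1 on chromosome 18 (1.48), BBC3 (1.24) and BMF (1.18) and the survival gene BCL2L2 on chromosome 14 (0.63). MCL1 (0.14), BCL2L1 (-0.04) and BAK1 (0.13) were not called, and BCL2 was not tested, with averages of 0.127 FPKM in EVI1 libraries and 0.316 FPKM in control libraries. In the inflammasome and NF-kB list 7 of 22 rose and 9 fell (7 and 7 of the 20 measured in both groups), with the adaptors PYCARD (-2.11) and CARD9 (-2.10) at the low end. In the death receptor list 6 of 28 rose and 8 fell, with a median of -0.009 and with the initiator caspase CASP8 lower (-0.79). Over all genes tested 28.2% rose and 23.7% fell, the background for every list of this paragraph. The shares of the death receptor list were near these. The PI3K, AKT and mTOR list held a larger share of rises than all genes. The inflammasome and NF-kB list held a larger share of falls, and the BCL2 family a smaller one.

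Metabolic and other lists moved less evenly. Of 24 metallothionein and zinc transport genes 13 rose and 1 fell (11 and 1 of the 21 measured in both groups), with MT2A at 1.69, and of 30 hypoxia-responsive genes 14 rose and 4 fell (2 without control library 2). BHLHE40, a repressor that hypoxia raises, had 122, 126 and 123 FPKM in EVI1 libraries, against 34.7, 41.3 and 39.2 FPKM in control libraries (log2 fold change 1.66 ± 0.08 (SE), adjusted p = 1.8e-06). In sterol synthesis 8 of 31 rose and 7 fell, shares near those of all genes (28.2% and 23.7%). ELOVL7, a fatty acid elongase, had 21.5, 19.9 and 16.9 FPKM in EVI1 libraries, against 1.05, 0.675 and 0.929 FPKM in control libraries (log2 fold change 3.44), in a list where 6 of 21 rose and 7 fell (3 and 6 of the 17 measured in both groups). ELOVL7 averaged below 1 FPKM in the controls, so its direction was largely set by the filter. Among 15 retinoid genes 10 rose and 3 fell (8 and 2 of the 12 measured in both groups), and the retinoic acid hydroxylases CYP26A1 (1.72) and CYP26B1 (1.35) led the rises. Of 26 nuclear receptors 10 rose and 4 fell (7 and 4 of the 23 measured in both groups), with the oestrogen receptor ESR1 at 2.30 and the glucocorticoid receptor NR3C1 at -0.64. In the lysosome list 21 of 48 rose and 10 fell, and of 33 NOTCH and WNT genes 11 rose and 6 fell (3 without EVI1 library 1; 8 and 4 of the 26 measured in both groups), with the NOTCH target HEY1 at 1.41 and the ligand JAG1 at 1.15.

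The share of genes that rose varied with their level. Among 1896 tested genes averaging below 2 FPKM over the 6 libraries 35.9% rose and 15.3% fell. Of these, 696 averaged below 1 FPKM in the control libraries and 348 in the EVI1 libraries, so the filter shaped this lean. Over the 874 measured in both groups 12.0% rose and 10.2% fell. Among 1194 genes above 100 FPKM 18.4% rose and 32.1% fell. Of 523 long intergenic RNAs 39.2% rose and 16.4% fell, beside 28.6% and 24.9% of 11309 protein-coding genes. Over those measured in both groups the shares were 32.1% and 14.7% of 374 long intergenic RNAs, beside 25.7% and 25.5% of 10630 protein-coding genes.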

How the data were processed

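RNA was sequenced from 3 K562 EVI1 and 3 K562 control libraries prepared with a TruSeq RNA kit, per the labels' protocols. The deposited values are FPKM per gene, and the submitters' processing notes name STAR, Cufflinks, Cuffnorm and the hg38 build, with no versions. Cuffnorm scales libraries to each other, so total RNA content cannot be read from these values. No column of per-sample values was left unmapped to a sample (0 columns). From the FPKM values log2(FPKM + 1) was computed, genes at 1 FPKM or more in at least 3 of 6 libraries were kept, and limma 3.58.1 with a mean-variance trend (R 4.3.3) compared the groups in a single two-sided test over all kept genes, with Benjamini-Hochberg adjustment and a threshold of 0.05. Tables were made in Python 3.11.15 (NumPy 2.4.6, pandas 2.3.3), figures with matplotlib 3.10.9, and the fit was tested on simulated data. GENCODE 29 placed 57928 of 58191 gene rows by identifier, 55570 of them with the exact version. Symbols turned into dates were restored for 27 rows. Read depth was estimated from the step that 1 read makes in genes of at least 2000 bases, and 79.6% to 83.6% of low values lay within 0.05 (log2) of whole reads. That precision was too low for a count test. Promoters came from RefSeq on GRCh38.p14.

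The comparison and the gene lists were chosen with earlier results of these data known. Named genes are MECOM, the 25 largest rises and the 25 largest falls that were called without overlap of the groups, up to 4 called members in each direction per list, key members of short lists whether called or not, and genes of the most extreme windows, and others are marked. Some genes that these rules name are not reported here. Replicate numbers are shared by both groups, but deviations of same-numbered libraries correlated at -0.215, -0.0518 and 0.126, so the numbers were not taken as pairs. Alternatives were another pseudocount, 3 other filters, 3 other scalings, no trend, zeros beside high replicates as missing in 2 ways (1 added after seeing the data), a replicate block, leaving out each library, a threshold of 0.01 and, added after seeing the data, counts over genes at 1 FPKM or more on average in both groups. The other 6 samples of the series were not used here.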

Additional observations from a re-analysis of the deposited data

How the results depend on the processing

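Of 491 named genes that were called, 449 kept their call and direction under every other setting in which they were tested (up to 17), 42 lost the call under at least 1 and 0 changed direction. Of 26 named genes that were not called, 7 were called under at least 1 setting. Leaving out each library in turn gave 3275 to 3762 genes higher and 2486 to 3215 lower. At an adjusted p under 0.01, 2088 genes were lower. Higher calls outnumbered lower ones in the main analysis (3898 and 3265), but not after median of ratios scaling (3628 and 3762) or quantile normalization (3347 and 4105). Counting only genes at 1 FPKM or more on average in both groups, a choice made after seeing the data, 573 rose 2-fold or more. At 2-fold or more, 576 genes were higher and 132 lower with a filter of 5 FPKM, and 425 were lower with a pseudocount of 0.1 and 371 after quantile normalization.

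With the replicate block, 3857 genes were higher and 3187 lower, and the same-numbered libraries did not deviate together, so the block result is a description only.

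The chromosome medians kept their sign throughout. That of chromosome 7 was -0.385 with a pseudocount of 0.1, -0.384 with a filter of 5 FPKM, -0.381 after median of ratios scaling and -0.415 after quantile normalization. For chromosome 20 these 4 values were -0.333, -0.343, -0.339 and -0.363, and leaving out single libraries gave -0.322 to -0.274. That of chromosome 14 was 0.575 with a pseudocount of 0.1 and 0.405 after quantile normalization, and that of chromosome 18 was 0.516 and 0.393.

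Some uncalled genes changed sign. After median of ratios scaling CTBP2 was at -0.0005, MTOR at -0.0415 and PIK3CA at -0.0163. After quantile normalization CTBP2 was at -0.1955, MTOR at -0.0265, PIK3CA at -0.0843, RPS18 at 0.1276 and MT-CO2 at 0.3215, and with equal sums MT-CO2 was at 0.012. Without single libraries CTBP1 ran between -0.1194 and 0.2615, CTBP2 between -0.0731 and 0.079, MTOR between -0.0628 and 0.0374, PIK3CA between -0.1288 and 0.162, BAX between -0.2782 and 0.0006, HBA2 between -0.073 and 0.195, HBG2 between -0.0001 and 0.2298 and MT-CO2 between -0.05 and 0.051. MT-CO3 ran between -4.8163 and 4.2877, MT-ATP6 between -4.6465 and 4.0472 and MT-ATP8 between -5.4675 and 3.4804, since these genes are listed at 0 in EVI1 library 1 and control library 2. The cause of the other changes was not tested.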
